A study of Mus musculus with 8 samples.

Results

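The genes described here are 9 genes grouped as hepatocyte tight junction genes, namely the claudins Cldn1, Cldn2, Cldn3, Cldn12 and Cldn14, the MARVEL-domain proteins Ocln and Marveld1, and the scaffold proteins Tjp1 and Tjp3. Marveld1 shares the MARVEL domain of occludin but is not an established part of the junction. They were found by exact gene symbol among 22180 genes that had a probe set with a single symbol, and each of the 9 had 1 such probe set. The list was selected on the measured differences between rilpivirine and control, with Cldn1, Tjp3 and Marveld1 already known to differ most, so the differences between those groups are descriptions of these arrays and carry no test. Liver RNA of wild-type C57BL/6 mice was measured on 8 one-colour Affymetrix whole-transcript arrays. 4 samples came from the group treated with rilpivirine, an oral non-nucleoside inhibitor of HIV reverse transcriptase, and 4 from the control group. All 8 samples are labelled non-alcoholic fatty liver disease. The labels mention feeding with a normal diet or a diet of 60% fat over 3 months, and daily oral dosing matched to human use, without giving the dose, the age, the diet of each sample or what controls received. They also do not say that each sample was a separate mouse, so the spread between samples may be technical. Within bulk liver RNA, fewer cells of a type and less RNA per cell cannot be told apart.

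Tight junctions close the gap between neighbouring hepatocytes around the bile canaliculus and keep bile apart from blood. Claudins are membrane proteins whose extracellular loops meet across the gap and either seal it or form channels selective for ions. Occludin belongs to a family of membrane proteins with a MARVEL domain, and the ZO proteins encoded by the Tjp genes bind the tails of claudins inside the cell and tie the junction to actin. Claudin 1 and occludin also serve as entry factors for hepatitis C virus in human hepatocytes.

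Cldn1 and Tjp3 transcripts were higher, and Marveld1 transcripts lower, in every rilpivirine sample than in every control sample, while the other 6 genes overlapped between the groups. The promoters of these 3 genes are shown because their transcripts separated the groups. Each window holds 250 bases before and 50 bases from the start site on, from RefSeq (GRCm38.p6), and all 9 genes matched this table with 15 start sites in all. Capitals mark matches, on either strand, to CACGTG (the E-box form bound by CLOCK and BMAL1), CAGGTG (an E-box form bound by SNAIL), TGANTCA (AP-1) or TTCNNNGAA (STAT).
Cldn1, chr16:26371790-26372089, minus strand: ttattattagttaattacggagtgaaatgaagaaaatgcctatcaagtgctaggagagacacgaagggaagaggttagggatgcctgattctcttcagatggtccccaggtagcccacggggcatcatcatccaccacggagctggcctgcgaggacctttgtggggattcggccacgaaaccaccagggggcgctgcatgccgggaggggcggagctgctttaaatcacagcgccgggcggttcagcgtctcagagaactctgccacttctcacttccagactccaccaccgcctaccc
Tjp3, first start site, chr10:81291532-81291831, minus strand: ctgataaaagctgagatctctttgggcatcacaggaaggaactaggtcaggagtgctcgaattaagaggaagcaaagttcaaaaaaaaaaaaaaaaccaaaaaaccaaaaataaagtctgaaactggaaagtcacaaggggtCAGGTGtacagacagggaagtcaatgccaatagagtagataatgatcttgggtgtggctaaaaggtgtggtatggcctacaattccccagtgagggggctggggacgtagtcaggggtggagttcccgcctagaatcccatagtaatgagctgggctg
Tjp3, second start site, chr10:81291218-81291517, minus strand: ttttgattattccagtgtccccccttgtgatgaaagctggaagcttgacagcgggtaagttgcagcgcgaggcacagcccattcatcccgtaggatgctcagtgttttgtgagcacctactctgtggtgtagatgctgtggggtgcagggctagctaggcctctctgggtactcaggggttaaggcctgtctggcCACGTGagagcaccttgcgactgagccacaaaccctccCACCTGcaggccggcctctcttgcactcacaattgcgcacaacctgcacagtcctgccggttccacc
Marveld1, chr19:42147139-42147438, plus strand: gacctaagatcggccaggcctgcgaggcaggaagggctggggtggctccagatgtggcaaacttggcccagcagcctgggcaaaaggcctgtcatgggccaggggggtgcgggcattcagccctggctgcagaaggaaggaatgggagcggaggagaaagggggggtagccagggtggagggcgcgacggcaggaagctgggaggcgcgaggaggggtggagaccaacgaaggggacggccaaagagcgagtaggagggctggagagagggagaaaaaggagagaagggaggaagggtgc
The second Tjp3 start site had CACGTG from 55 bases before the start, and CAGGTG on the other strand from 17 bases before it. Its first start site had CAGGTG from 108 bases before the start. No match to the 4 motifs was found in these windows of Cldn1 and Marveld1. Among the 6 genes whose groups overlapped, CAGGTG was also found in windows of Ocln, Cldn3 and Cldn14. TTCNNNGAA was found in windows of Cldn12 and Cldn14. Of 32851 promoter windows of all genes, 7.15% held CACGTG, 20.2% CAGGTG, 7.81% TGANTCA and 8.30% TTCNNNGAA. A match describes letters only, and binding was not measured.

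The authors' values are RMA log2 levels, so a difference of 1 is a 2-fold difference. Array medians lay between 3.33 and 3.45. Rilpivirine replicate 2 had a mean correlation of 0.964 with the other arrays, against 0.976 to 0.981 for the remaining 7, and the highest small nucleolar RNA level (the mean of 75 probe sets), 0.49 log2 above the mean of 8 arrays against -0.60 to 0.27 elsewhere. Of 16635 genes tested with limma, 0 passed an adjusted p of 0.05 (0%), and 867 had an unadjusted p under 0.05 (5.21%). The groups did not overlap in 3.04% of tested genes, 1.30% with rilpivirine higher and 1.73% with rilpivirine lower. Among the 9 genes, all of which passed the filter on dim genes, the groups did not overlap in 3, and since the list was made with this contrast in view nothing is read from that share. Their median difference was 0.03 log2, with 6 higher and 3 lower, beside a median of -0.03 over all tested genes, of which 7174 were higher and 9461 lower.

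Among the claudins, Cldn1 had the largest difference in size of the 5 measured here. Claudin 1 seals the junction and is needed for the barrier of the skin in mice. Cldn1 measured 8.53, 8.61, 8.51 and 8.91 log2 in rilpivirine replicates 1 to 4, against 7.92, 8.09, 7.76 and 7.77 in control replicates 1 to 4. The lowest rilpivirine value lay 0.41 log2 above the highest control value. Group means were 8.64 ± 0.19 in the rilpivirine group and 7.89 ± 0.16 in the control group (SD, n = 4 each), a 1.68-fold higher level with a 95% interval of 1.38 to 2.06. Leaving out each sample in turn gave log2 differences of 0.66 to 0.82.

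Cldn3, another sealing claudin of hepatocytes and bile ducts, measured 8.94, 9.26, 8.51 and 8.55 log2 in rilpivirine replicates 1 to 4, against 8.35, 8.94, 8.44 and 8.44 in the controls. Control replicate 2 stood apart from the other 3 controls and overlapped the rilpivirine group. The difference was 0.27 ± 0.19 log2 (SE), with a 95% interval of -0.15 to 0.69. The 3 arrays with the highest Cldn3 were also the 3 with the highest small nucleolar RNA level: rilpivirine replicate 2 at 0.49, control replicate 2 at 0.27 and rilpivirine replicate 1 at 0.26 log2 above the mean. Rilpivirine replicate 4, however, ranked 4 of 8 for Cldn3 and 7 of 8 for that level. With that level as a covariate, an alternative chosen after seeing the data, the Cldn3 difference was 0.04. It was 0.12 without rilpivirine replicate 2 and 0.40 without control replicate 2. The level itself tended to be higher in the rilpivirine arrays, so the covariate can also take up a difference between the groups. Its part in the Cldn3 values was not tested.

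Cldn2 forms channels that let small cations and water pass, and in rat liver its protein is graded towards the central vein. Cldn2 measured 4.05, 4.14, 3.93 and 4.21 log2 with rilpivirine, against 3.71, 4.24, 4.04 and 3.74 in controls. Control replicate 2 held the highest of the 8 values, so the groups overlapped, and the difference was 0.15 ± 0.14 log2 (SE). It was 0.05 with the small nucleolar RNA covariate, 0.07 without control replicate 1, 0.25 without control replicate 2 and 0.23 with both arrays numbered 2 left out. Cldn12 encodes an atypical claudin whose tail lacks the motif that binds ZO proteins. Its levels were 6.40, 5.93, 6.15 and 6.48 with rilpivirine, against 6.53, 6.41, 6.65 and 6.38 in controls. Rilpivirine replicates 2 and 3 lay below all controls and replicates 1 and 4 among them, giving a difference of -0.25 ± 0.14 (SE). That difference was -0.15 without rilpivirine replicate 2.

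Cldn14, a barrier claudin best known from the inner ear and kidney, measured 4.16, 3.71, 3.77 and 3.66 log2 with rilpivirine, against 3.80, 3.70, 3.86 and 3.81 in controls. Rilpivirine replicate 1 was the highest of the 8, and the difference of 0.03 ± 0.13 (SE) became -0.08 without it. Cldn2 and Cldn14 were dim, with means 1.29 and 1.09 log2 above the filter value of 2.72.

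**Figure D1:**
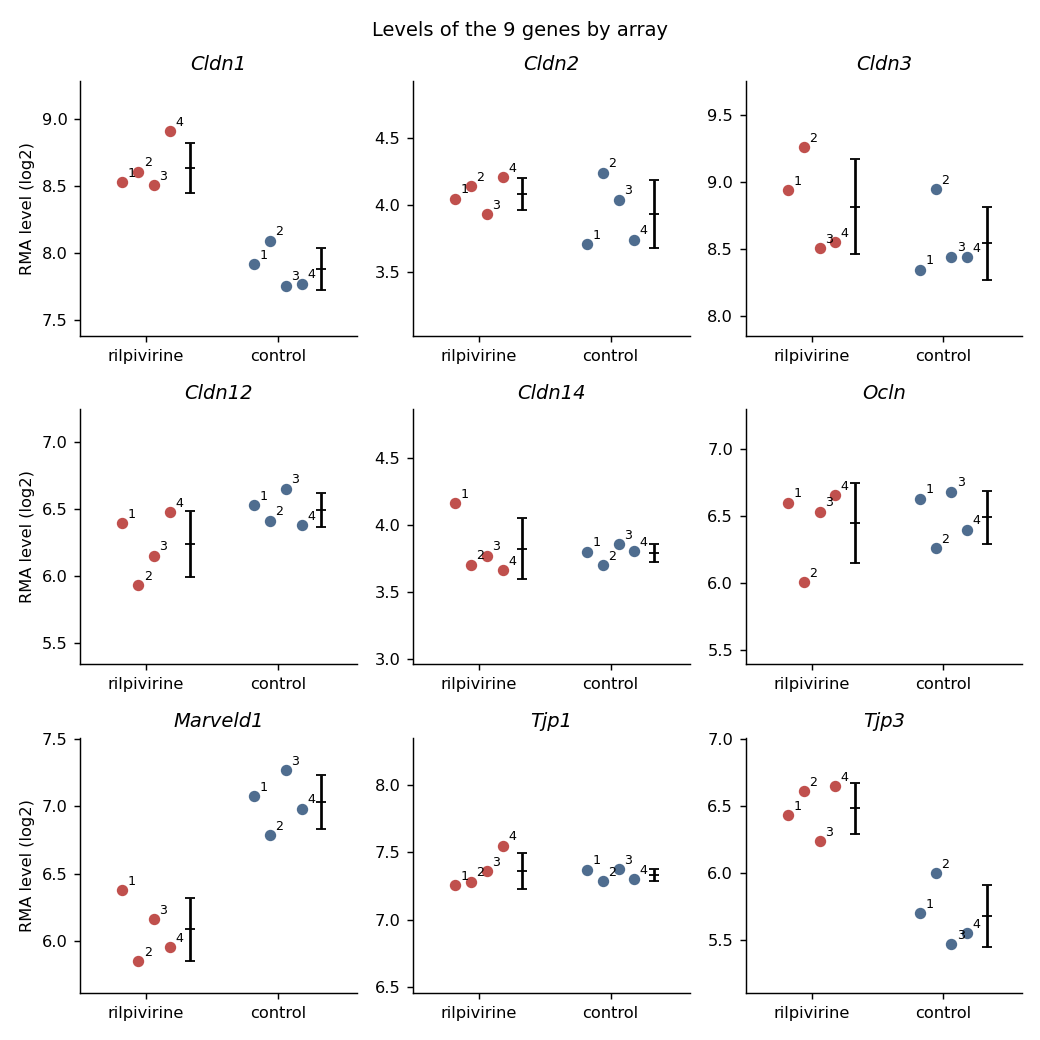
RMA log2 levels (y axis) of the 9 genes on each array, with rilpivirine left and control right; numbers are replicate numbers, and bars give the mean ± SD of 4 arrays. Each panel spans the same log2 range. Cldn1 and Tjp3 lay higher, and Marveld1 lower, in all 4 rilpivirine arrays than in all 4 controls, whereas the groups overlapped in the other 6 panels.

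Of the 2 MARVEL-domain genes, Marveld1 separated the groups and Ocln did not. Occludin, encoded by Ocln, sits in the strands of the junction and helps regulate them. Ocln measured 6.60, 6.01, 6.53 and 6.65 log2 with rilpivirine, against 6.63, 6.26, 6.68 and 6.40 in controls. Replicate 2 was the lowest array in each group, and the difference was -0.04 ± 0.16 (SE), with a 95% interval of -0.41 to 0.32. Its sign was not stable: the difference was 0.10 without rilpivirine replicate 2, 0.03 after a further quantile normalization and 0.11 with the small nucleolar RNA covariate.

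Marveld1 encodes a MARVEL-domain protein that is not counted among the 3 junction-associated members of that family, which are occludin, tricellulin and MarvelD3. Marveld1 measured 6.37, 5.85, 6.16 and 5.95 log2 in rilpivirine replicates 1 to 4, against 7.08, 6.79, 7.27 and 6.98 in controls. The highest rilpivirine value was 0.41 log2 below the lowest control value. Means were 6.08 ± 0.23 in the rilpivirine group and 7.03 ± 0.20 in the control group (SD, n = 4 each), a 1.93-fold lower level. The log2 difference of -0.95 had a 95% interval of -1.28 to -0.62, and ranged from -1.04 to -0.87 when each sample was left out in turn. The gene for tricellulin, Marveld2, differed by -0.14 ± 0.18 log2 (SE) and Marveld3 by -0.12 ± 0.13 (SE), with adjusted p of 0.920 and 0.912 in limma. Marveld3 was dim, with means of 3.00 log2 in the rilpivirine group and 3.12 in the control group.

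The scaffold genes also differed from each other. Tjp3, which encodes ZO-3, the ZO protein found in epithelia, measured 6.43, 6.61, 6.23 and 6.64 log2 in rilpivirine replicates 1 to 4, against 5.70, 6.00, 5.47 and 5.55 in controls. Control replicate 2 came nearest to the rilpivirine group, and the gap between the groups was 0.24 log2. Means were 6.48 ± 0.19 in the rilpivirine group and 5.68 ± 0.23 in the control group (SD, n = 4 each), a 1.74-fold higher level with a 95% interval of 1.39 to 2.19. Tjp1, which encodes ZO-1, the scaffold shared by epithelia and endothelia, measured 7.26, 7.28, 7.36 and 7.55 with rilpivirine, against 7.37, 7.29, 7.37 and 7.30 in controls. The difference of 0.03 ± 0.11 log2 (SE) had a 95% interval of -0.22 to 0.27 and became -0.04 without rilpivirine replicate 4. Tjp1 had the smallest spread within groups of the 9 genes, a pooled SD of 0.10 log2 against 0.17 to 0.32 for the others and a median of 0.21 over all tested genes.

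**Figure D2:**
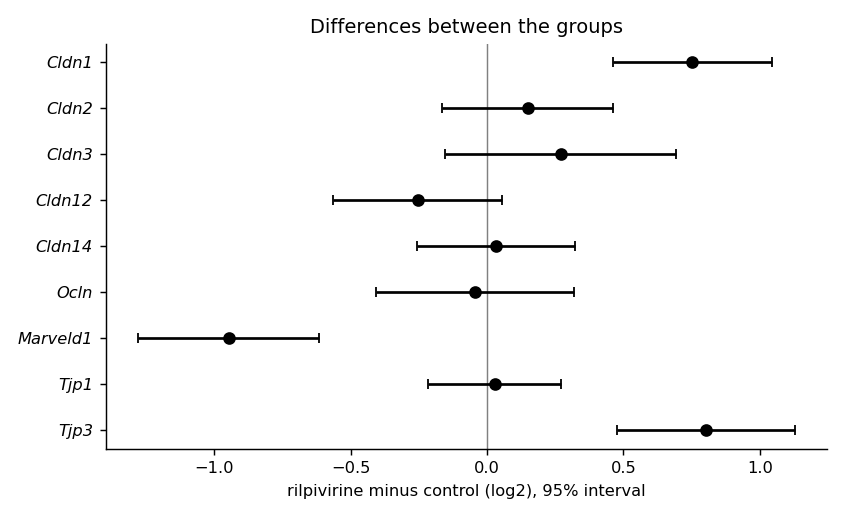
Difference between rilpivirine and control (x axis, log2) for each of the 9 genes (y axis), with the 95% interval of the limma fit over all genes. The differences run from -0.95 for Marveld1 to 0.80 for Tjp3; the genes were listed with this contrast known, so the intervals show the precision of each value and test nothing.

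Because probe levels cannot be compared between genes, the genes were set against each other as log2 ratios within each array. The ratio of Cldn1 to Tjp3 was nearly the same on every array. It measured 2.10, 1.997, 2.27 and 2.27 log2 with rilpivirine, against 2.22, 2.10, 2.29 and 2.22 in controls, and its group means differed by -0.05. By contrast, the ratio of Tjp3 to Marveld1 averaged 0.40 ± 0.38 log2 in the rilpivirine arrays and -1.35 ± 0.42 in the controls (SD, n = 4 each), a 3.36-fold higher ratio. Cldn1 to Marveld1 was 3.25-fold higher, at 2.56 ± 0.37 with rilpivirine and 0.86 ± 0.34 in controls.

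Ratios between partners of one family are given as well. Like the ratios over Marveld1, they restate the differences of Cldn1 and Tjp3 on which the list was made, and they test nothing. Cldn1 relative to the channel-forming Cldn2 measured 4.48, 4.46, 4.57 and 4.70 log2 with rilpivirine, against 4.21, 3.85, 3.72 and 4.03 in controls, so all 4 rilpivirine arrays lay above all controls. The ratio was 1.52-fold higher. Tjp1 relative to Tjp3 averaged 0.88 ± 0.19 with rilpivirine and 1.66 ± 0.26 in controls, a 1.71-fold lower ratio without overlap. Cldn1 relative to Cldn3 overlapped between the groups, with -0.18 ± 0.45 with rilpivirine and -0.66 ± 0.17 in controls. Relative to Cldn14 it overlapped too, whereas relative to Cldn12 it did not. A ratio within an array shows unequal change of 2 transcripts and does not by itself show which of them changed. Taken singly, Cldn1 and Tjp3 differed by 0.75 and 0.80 log2, and Cldn2 and Tjp1 by 0.15 and 0.03.

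**Figure D3:**
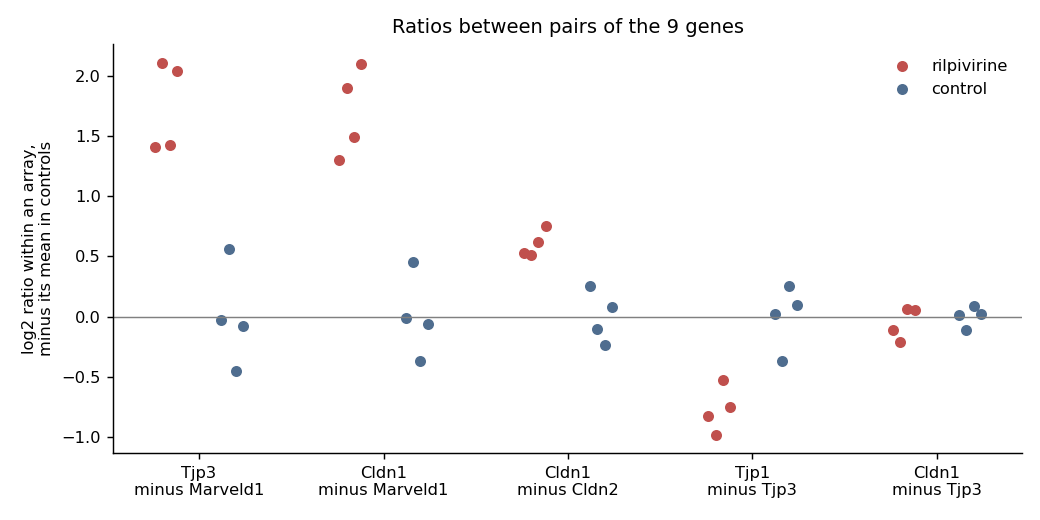
Log2 ratios between pairs of the 9 genes within each array (y axis, minus the mean ratio of the 4 controls), with rilpivirine left of control in each pair and a point for each array. The ratios over Marveld1 are shifted upwards with rilpivirine, by 1.75 log2 for Tjp3 and 1.70 for Cldn1, while that of Cldn1 to Tjp3 stays near 0.

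The profiles of Cldn1 and Tjp3 across the 8 arrays were each other's nearest among all 16635 tested genes. Likeness was the root mean square distance between profiles centred on their mean over 8 arrays, which was 0.10 log2 for this pair. The next nearest to Cldn1 were Arntl, which encodes the clock activator BMAL1, and Mpzl1, which encodes a cell surface glycoprotein, both at 0.17. Next to Tjp3 came Gldc, of the glycine cleavage system, at 0.16, and Sec23b, of the coat of vesicles leaving the endoplasmic reticulum, at 0.19. Nearest to Marveld1 were Gne, of sialic acid synthesis, at 0.16, Rarres1, a retinoic acid-responsive gene, at 0.18 and Ttc39c at 0.20. This measure includes the difference between the groups, which the list was built on.

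Within the groups, where that difference plays no part, Cldn1 and Tjp3 stayed at a distance of 0.10 log2. For Cldn1, 1.12% of the other tested genes were as close as Tjp3, and for Tjp3, 0.475% were as close as Cldn1. A gene with no deviation at all would lie at 0.15 from Cldn1 and 0.18 from Tjp3. This centring was chosen after the data were seen. Both genes were highest in replicate 4 among the rilpivirine arrays and in replicate 2 among the controls, and lowest in replicate 3 of each group. Marveld1 lay at 0.31 from Cldn1 and 0.35 from Tjp3 within groups, and was nearer to Cldn14 at 0.11 and Ocln at 0.15. For Marveld1, 0.583% of the other tested genes were as close as Cldn14 and 4.93% as close as Ocln. Such closeness was therefore not particular to Cldn1 and Tjp3. Control replicate 2 showed the split most plainly: it was the highest control for Cldn1, Cldn2, Cldn3 and Tjp3, and the lowest for Cldn14, Ocln, Tjp1 and Marveld1. Rilpivirine replicate 2 was the highest of its group for Cldn3 and the lowest for Cldn12, Ocln and Marveld1. These 2 arrays had the highest small nucleolar RNA levels of the 8, and the part of that in the pattern was not tested. With both left out, the differences of Cldn1, Tjp3 and Marveld1 were 0.83, 0.87 and -0.95 log2.

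**Figure D4:**
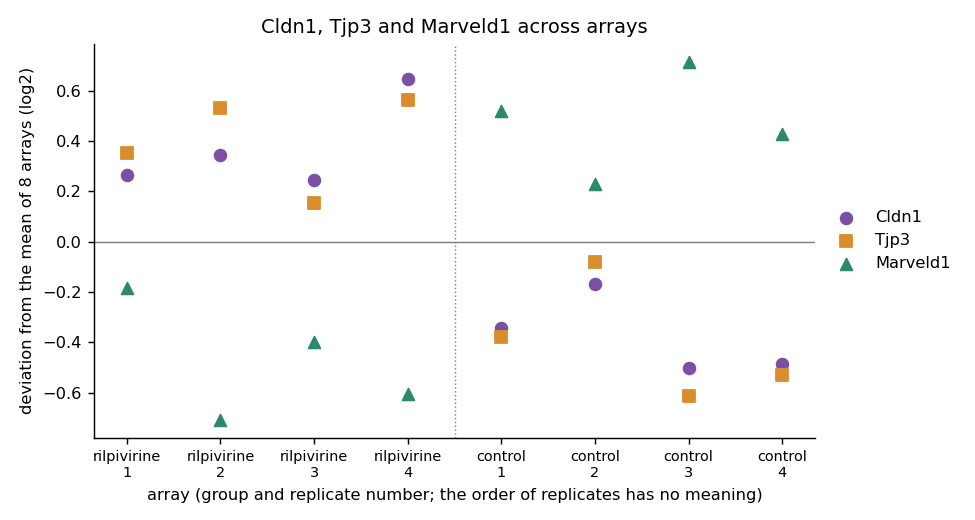
Deviation of Cldn1, Tjp3 and Marveld1 from their own mean over 8 arrays (y axis, log2) for each array (x axis), rilpivirine left and control right of the dotted line. Cldn1 and Tjp3 lie close together on every array, above 0 with rilpivirine and below 0 in controls, with Marveld1 on the opposite side of 0 throughout.

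The rest of the junction was read from 4 further lists, of other claudins, other membrane proteins, other scaffold and polarity proteins, and proteins of adherens junctions, gap junctions and desmosomes. Of 75 listed genes 72 were measured and 67 tested, and limma called 0 of them over all genes (smallest adjusted p 0.849). An unadjusted p under 0.05 was found for 2 of the 67, both higher with rilpivirine, and for 5.21% of all tested genes. In all, 26 were higher and 41 lower, with a median difference of -0.05 log2, and 1.49% did not overlap between the groups. Cgn, which encodes cingulin, a cytoplasmic protein bound to ZO proteins and actin, had the largest difference among the 22 other scaffold and polarity genes tested. Cgn measured 5.91, 6.08, 5.83 and 5.99 log2 with rilpivirine, against 5.31, 5.95, 5.46 and 4.92 in controls, a difference of 0.54 ± 0.19 (SE, limma adjusted p = 0.855). Only control replicate 2 reached the rilpivirine range, the same array that was the highest control for Cldn1 and Tjp3. Rab13, a small GTPase of vesicle traffic to the junction, differed by -0.22 ± 0.13 and Pard3, a polarity protein, by -0.22 ± 0.15 (SE). Of these 22 genes, 7 had higher and 15 lower values, and their median was -0.06.

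The other claudins showed small differences. Of 18 measured, 13 passed the filter on dim genes, 5 higher and 8 lower, and their differences ran from -0.11 to 0.15 log2. Many of these 13 were still dim. Their means with rilpivirine ran from 2.78 log2 for Cldn22, close to the filter value of 2.72, to 4.88 for Cldn5. Small differences in such dim genes do not show that their transcripts were unchanged. Cldn4, a claudin of bile ducts, differed by 0.15 ± 0.11, Cldn13, a rodent claudin, by 0.15 ± 0.14, and Cldn19, known from the kidney, by -0.11 ± 0.10 (SE). Of the 14 other membrane proteins, 2 had higher and 12 lower values, and their median was -0.10. Esam, an adhesion molecule of endothelial junctions, differed by -0.10 ± 0.11 and Clmp, of the same superfamily, by -0.10 ± 0.12 (SE).

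Among adherens, gap junction and desmosome genes 12 of 18 had higher and 6 lower values, and their median was 0.06. Their mean deviation from the mean of 8 arrays reached 0.22 log2 for rilpivirine replicate 4, which stood apart. The other 3 rilpivirine arrays lay between -0.11 and 0.01 and the controls between -0.08 and 0.04. This was not particular to the list. Rilpivirine replicate 4 was also the highest array for the other membrane proteins and for the other scaffold and polarity proteins, at 0.14 each. For the other claudins it lay at 0.03 and was not the highest. Nectin1, an adhesion molecule that helps to build adherens junctions, averaged 7.86 ± 0.23 log2 in the rilpivirine group and 7.38 ± 0.25 in the control group (SD, n = 4 each), a difference of 0.49 ± 0.16 (SE, limma adjusted p = 0.849). E-cadherin, encoded by Cdh1, differed by 0.26 ± 0.13 and the actin linker Vcl by 0.30 ± 0.17 (SE). The gene whose groups did not overlap was Ctnnd1, which encodes p120 catenin and is named here after its values were seen, with a difference of 0.09 ± 0.10 (SE). Among 10 tested regulators of junction genes, 7 were higher and 3 lower, and limma called 0, with 0 at an unadjusted p under 0.05. Grhl1 differed by 0.30 ± 0.14, Klf4 by 0.21 ± 0.14 and Zeb1, a repressor of epithelial genes, by -0.27 ± 0.20 (SE). Snai1, which encodes the SNAIL repressor, differed by 0.10 ± 0.17 (SE).

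**Figure D5:**
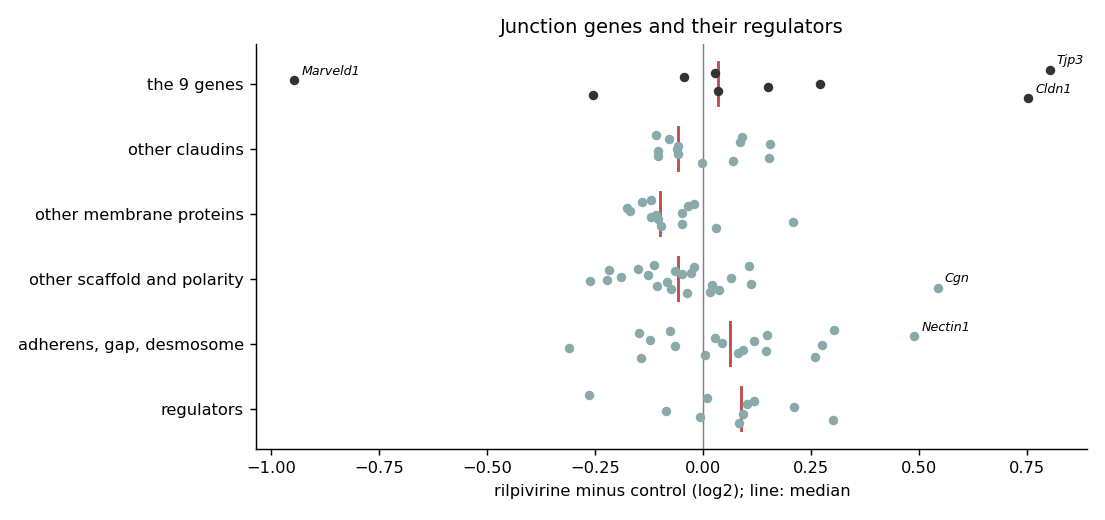
Differences between rilpivirine and control (x axis, log2) of the 9 genes, of 4 lists of other junction genes and of regulators (y axis), with a point for each gene and a line at each median. Cldn1, Tjp3 and Marveld1 lie outside the range of the genes on the other lists; they were listed with these values known, so the gap is no test.

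Markers of the cells that carry tight junctions were checked beside these values. The 9 measured hepatocyte markers were bright, with Alb at 13.30 log2 with rilpivirine against 13.25 in controls, and differed by -0.25 to 0.05. Hnf4a, a master regulator of hepatocyte genes, differed by -0.09 ± 0.11, Cps1 by -0.08 ± 0.10 and Fabp1 by -0.25 ± 0.17 (SE). Of 14 bile duct markers 11 were measured and 10 tested, 5 higher and 5 lower. Their mean deviation from the mean of 8 arrays spanned -0.22 to 0.30 log2 in rilpivirine arrays and -0.15 to 0.13 in control arrays. The upper end was rilpivirine replicate 4, where Prom1 measured 5.07 log2 against 3.04 to 4.05 on the other arrays. Several of these markers were dim, such as Epcam at 3.70 in both groups, so they cannot show whether the bile duct share changed. Krt19, a keratin of bile ducts, averaged 3.71 ± 0.11 in the rilpivirine group and 3.73 ± 0.27 in the control group (SD, n = 4 each). Sox9, a bile duct transcription factor, differed by 0.15 ± 0.11 and Krt7 by 0.12 ± 0.12 (SE). The tests of these 2 lists called 0 genes, with 0 at an unadjusted p under 0.05.

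Of 12 sinusoidal endothelial markers 11 were higher and 1 lower, and their mean deviation spanned -0.08 to 0.25 log2 in rilpivirine arrays and -0.30 to 0.02 in control arrays. The mean was highest in rilpivirine replicates 1 and 2, at 0.25 and 0.21, where the small nucleolar RNA level was 0.26 and 0.49. It was lowest in control replicate 1, at -0.30, where that level was also lowest, at -0.60. Control replicate 2, however, had a level of 0.27 and a marker mean of -0.02, below rilpivirine replicate 3 at 0.08, where the level was 0.02. The part of that level in the shift was not tested. Limma called 0 of the markers over all genes, with 3, Kdr, Oit3 and Stab2, at an unadjusted p under 0.05 (5.21% over all genes) and differences of 0.43, 0.40 and 0.40. Cldn5, the claudin of endothelium, differed by 0.08 ± 0.19 (SE). The part of the endothelial share in the values of Tjp1 and the other genes shared with endothelium was not tested. Zonal markers showed 2 of 11 pericentral genes higher and 9 lower, and 3 of 10 periportal genes higher and 7 lower, beside 7174 higher and 9461 lower over all tested genes. In each zonal list 0 were called in limma and 1 had an unadjusted p under 0.05. Slc1a2, a pericentral glutamate transporter, differed by -0.43 ± 0.12 (limma adjusted p = 0.811) and Pck1, a periportal enzyme of gluconeogenesis, by -0.62 ± 0.24 (SE, limma adjusted p = 0.890). The pericentral Lect2 and Cyp1a2 differed by -0.25 ± 0.21 and 0.14 ± 0.12, and the periportal Arg1 and Pigr by -0.32 ± 0.16 and -0.20 ± 0.11 (SE). Glul, the defining pericentral enzyme, measured 11.03 log2 with rilpivirine against 11.05 in controls.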

How the data were processed

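The authors deposited RMA log2 values for 41345 probe sets, per the submitters' processing notes, which also name limma and give no versions. RNA was labelled with a whole-transcript kit from 300 ng per sample, per the labels' protocols. RMA makes total signal alike across arrays, so a change in total mRNA could not be seen. Gene symbols came from the platform annotation. 23521 probe sets had 1 symbol, and the brightest per symbol was kept. Genes under the 25th percentile of means (2.72 log2) were left out, and the other 16635 were tested between the groups by limma 3.58.1 (R 4.3.3; lmFit, eBayes), two-sided, with Benjamini-Hochberg adjustment over all genes at 0.05. The fit was run on simulated data with known changes. That check required recovery only of changes far larger than those described here, so passing it says nothing on changes of this size. No pair of arrays was identical. Precision is limited by having 4 arrays in a group. Members and lists were chosen with earlier results of these data known. Named genes were the 9 members, the 3 with the smallest p of each list, and the 3 nearest profiles to each member without overlap between groups; others were named after seeing their values. Alternatives were other moderation, array weights, scalings, filters, probe set means, a replicate block and samples left out; leaving out both arrays numbered 2 and the small nucleolar RNA covariate were chosen later, with the data seen. Plots used matplotlib 3.10.9.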

Additional observations from a re-analysis of the deposited data

Results flagged for a closer look

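Of 18 sets of 4 arrays (9 genes in each group) 1 held an array far from the rest. Cldn3 measured 8.94 log2 in control replicate 2, against 8.35 to 8.44 in the other 3 controls, a gap of 0.839 of the group's whole range, which is above Dixon's 95% critical value for 4 samples. Chance alone flags about 1 in 20 such sets, so 1 of 18 is near that rate.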

How the results depend on the processing

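Under all 18 alternatives, limma called 0 genes over all tested and 0 of the other junction genes at an adjusted p of 0.05. The differences of Cldn1, Tjp3 and Marveld1 kept their direction. Over the alternatives that kept all samples or left out several, they ranged from 0.74 to 0.83, 0.75 to 0.87 and -0.96 to -0.87 log2. All 161 values of the 9 genes moved by less than the spread between replicates, which is a wide limit. Leaving out 1 of 4 arrays cannot pass it, and several alternatives leave a gene's difference unchanged by design. Even the change of Cldn3 from 0.27 to 0.04 with the small nucleolar RNA covariate stayed within it. The signs of Ocln, Cldn14 and Tjp1 changed under 6, 1 and 1 alternatives. The 867 genes at an unadjusted p under 0.05 became 1524 without rilpivirine replicate 4; the 505 genes without overlap became 784 to 1302 with 1 array fewer and 1759 without both arrays numbered 2, where fewer values must separate. The 2 other junction genes at an unadjusted p under 0.05 became 4 with array weights, after a further quantile normalization or without rilpivirine replicate 2. With the replicate number as a block, limma called 0 genes, with 1071 at an unadjusted p under 0.05. Deviations of same-numbered arrays correlated at -0.25, 0.46, -0.09 and 0.07. The labels do not say whether the numbers pair the samples, and these correlations cannot settle it. Dim genes such as Cldn2 and Cldn14 are limited by signal over background.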
